A study of Mus musculus with 20 samples.

Results

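Experiment 2 of a study of iodoacetic acid compared ovarian antral follicles of mice that drank 10 mg/L of this compound with those of mice that drank water alone. Its members were taken from the labels and from the column names of the deposited count table: 5 exposed and 5 water mice, 10 of the 20 mice in the series. All were female mice of the outbred strain CD-1. Exposure through the drinking water began at 40 days of age and ran for 35 days, so the animals were 75 days old when ovaries were taken in diestrus, a phase of the estrous cycle. Follicles of 220 to 400 µm, 30 to 40 per animal, were dissected by hand, and those of 1 mouse made 1 library. Experiment 1, run 1 month apart from experiment 2, compared 500 mg/L with 5 water mice of its own and is used here only to set values beside those of 10 mg/L. No mouse belongs to both experiments. The 10 mg/L group holds 1 dose and 1 time point, so nothing in it describes a course over time.

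Iodoacetic acid forms when water that contains iodide is disinfected. It alkylates thiol groups of proteins, and its classical target is glyceraldehyde-3-phosphate dehydrogenase, an enzyme of glycolysis. An antral follicle holds an oocyte, granulosa cells around a fluid-filled cavity, and an outer theca layer with vessels. Granulosa cells turn theca androgens into estradiol, and after ovulation granulosa and theca cells become the luteal cells that make progesterone.

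The libraries held 41.7 M to 51.0 M estimated read counts in the water mice and 39.9 M to 51.5 M in the exposed mice (M, 1e6). Expression is given below in CPM, a gene's count per 1e6 counts of a library whose size was scaled by the trimmed mean of M values. All 18 granulosa, 13 theca and 20 oocyte genes on the lists were above the authors' filter on low counts. The granulosa hormone subunit Inha, for example, stood at 5002 ± 391 CPM in water mice and 5404 ± 1076 CPM in exposed mice (SD, n = 5 each), and the oocyte factor Gdf9 at 122 ± 19.7 and 111 ± 25.1 CPM. Exposed mice varied more among themselves than the water mice of experiment 2. Of the 13182 genes with a mean of at least 2 CPM, 73.8% had the larger SD of log2 CPM in the exposed group, with a median SD of 0.175 against 0.123. In the water mice of experiment 1 the SD was above that of exposed mice for Cast (44.0 against 15.3 CPM). It was below that of exposed mice for Mid1 (4.47 against 8.71 CPM). The part of exposure in the wider spread was not tested. Exposed replicate 2 stood apart in RNAs that carry no poly(A) tail: the spliceosomal RNA Rnu1a1 was at 47.04 CPM there and at most 0.6107 CPM in the other 9 mice, and the transcript LOC118568312 took 2.27% of its counts against at most 0.149% in the others.

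The comparison of the 5 exposed with the 5 water mice asked which follicle transcripts differ after 10 mg/L. Of 18169 genes tested with edgeR's quasi-likelihood test, 0 passed a Benjamini-Hochberg adjusted p under 0.05, which is 0% of those tested, and the smallest adjusted p was 0.294. At an unadjusted p under 0.05 there were 763 higher genes (4.2%) and 459 lower genes (2.53%), 6.73% in both directions together. In 90 genes every exposed mouse was above every water mouse (0.495%), and in 91 every exposed mouse was below (0.501%), 0.996% together. Other tools disagreed on the count at the adjusted threshold: limma-voom and limma-trend called 0 genes, and DESeq2's Wald test called 75, of which 52 were higher and 23 lower. The median log2 change over all genes was 0.002, and for 14365 of the 18167 genes with an interval (79.1%) the 95% interval of the change lay within 2-fold in both directions. Because no gene passed, the genes below are described by their levels, and the word higher or lower beside them refers to these 10 mice.

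The genes named first are the 12 per direction with the smallest p among those whose groups did not overlap. The same contrast chose them, so their p-values describe and support nothing. They are known genes with a mean of at least 2 CPM. Their adjusted p by edgeR ran from 0.294 to 0.578, and by DESeq2 all 24 were under 0.05, from 1.53e-05 to 0.0338.

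Mid1 encodes a ubiquitin ligase that sits on microtubules and directs the breakdown of the catalytic subunit of the phosphatase PP2A. In water replicates 1 to 5 it stood at 17.65, 21.29, 22.81, 20.37 and 27.7 CPM, and in exposed replicates 1 to 5 at 31.99, 36.62, 47.71, 46.88 and 53.24 CPM. The lowest exposed mouse was above the highest water mouse. The log2 difference was 0.98 (SE 0.15, 95% interval 0.64 to 1.32, edgeR adjusted p = 0.294). Of the 7 measured genes on the list of Mid1 and its PP2A partners, the paralog Mid2 also had a small p, with 21.8 ± 1.07 CPM in water mice and 25.2 ± 2.54 CPM in exposed mice (SD, n = 5 each), a log2 difference of 0.21 (SE 0.08, edgeR adjusted p = 0.703), and the list's median was −0.009.

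Receptor and signalling genes among the higher 12 included the one with the widest gap. Tnfrsf9, a costimulatory receptor of the TNF receptor family also known as 4-1BB, stood in water mice at 2.263, 1.083, 1.055, 1.08 and 0.8279 CPM and in exposed mice at 4.761, 6.993, 4.445, 28.86 and 34.83 CPM. Replicates 4 and 5 were far above the other exposed mice, and the log2 difference was 3.67 (SE 0.65). Ptk2b, the focal adhesion kinase relative Pyk2, ran from 10.3 to 14.06 CPM in water mice and from 14.26 to 36.28 CPM in exposed mice, again with replicates 4 and 5 on top (log2 difference 1.07, SE 0.24). The signalling adaptor Pik3ap1, which links receptors to phosphoinositide 3-kinase, was tighter, at 5.004 to 7.737 CPM against 8.536 to 10.66 CPM (0.74, SE 0.14).

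Genes of protein turnover were the ubiquitin ligase Marchf7, the deubiquitinase family member Usp43, the calpain inhibitor Cast and the cystatin family member Cst8. Marchf7 had the smallest SE of the higher genes, with 61.0 to 67.08 CPM in water mice and 72.63 to 86.35 CPM in exposed mice, a log2 difference of 0.37 (SE 0.06). Cst8 ran from 2.578 to 5.61 CPM in water mice and from 6.155 to 20.54 CPM in exposed mice (1.60, SE 0.34). Cast and Usp43 differed by 0.56 (SE 0.12) and 0.69 (SE 0.15). Apold1, an early response gene of endothelial cells, and Spns2, the sphingosine-1-phosphate exporter, differed by 1.03 (SE 0.21) and 0.74 (SE 0.17). The SH3-domain protein gene Ostf1 differed by 0.45 (SE 0.09), and the orphan receptor Mrgpre by 1.12 (SE 0.26).

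**Figure D1:**
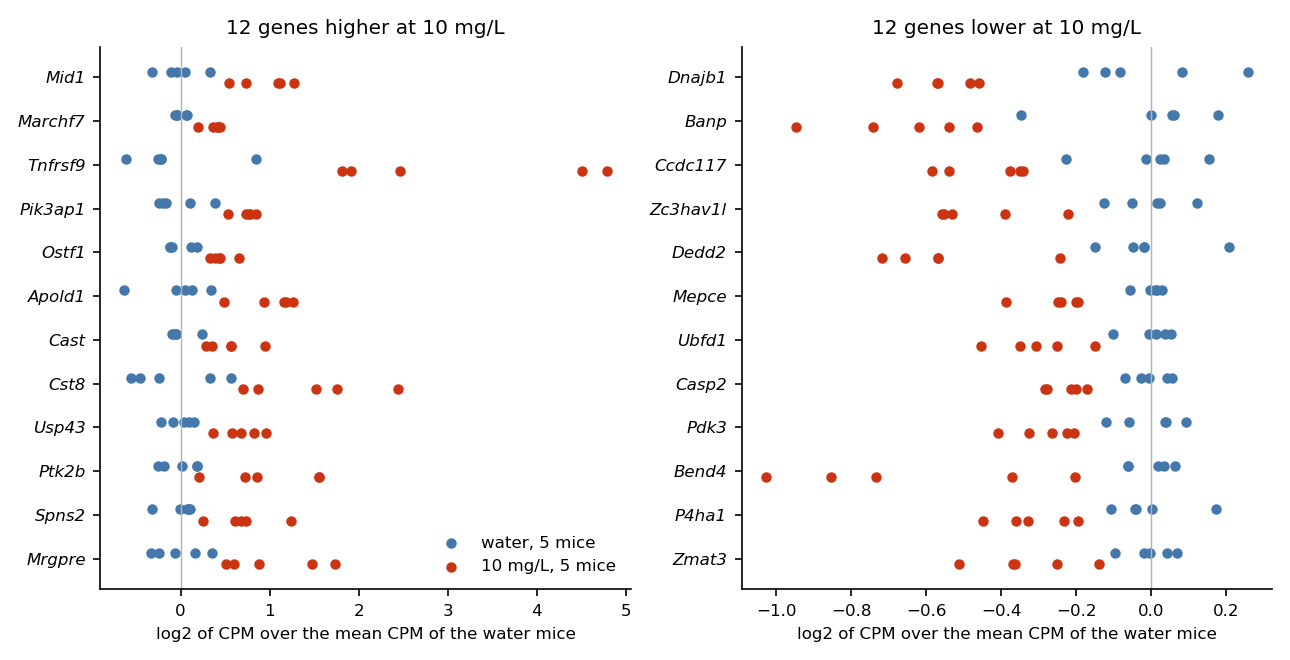
Each row is 1 gene and each point 1 mouse; the x axis is the log2 of the mouse's CPM over the mean CPM of the 5 water mice, with higher genes on the left and lower genes on the right. The exposed mice (red) do not overlap the water mice (blue) in any row because the genes were chosen for that, and the exposed points of Tnfrsf9 split into 3 mice at 4.445 to 6.993 CPM and 2 mice at 28.86 and 34.83 CPM.

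The lower genes differed by less, from −0.23 to −0.65 on the log2 scale. Dnajb1, the HSP40 co-chaperone that hands client proteins to HSP70, led them. Water replicates 1 to 5 stood at 96.11, 115.3, 102.8, 130.3 and 100.1 CPM, and exposed replicates at 77.94, 73.5, 68.01, 73.3 and 79.17 CPM. The exposed mice were close together and all below the lowest water mouse, with a log2 difference of −0.55 (SE 0.09, edgeR adjusted p = 0.294). Banp, a nuclear protein that binds promoters, had the largest fitted difference of the 12, with 43.92 to 63.18 CPM in water mice and 28.94 to 40.48 CPM in exposed mice (−0.65, SE 0.11). Bend4 was at 184.7 to 201.5 CPM in water mice and spread from 94.48 to 167.6 CPM in exposed mice (−0.61, SE 0.14).

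Cell death genes among the 12 were Dedd2, a death effector domain protein, at −0.54 (SE 0.11), and the initiator caspase Casp2 at −0.23 (SE 0.05). Zmat3, an RNA-binding target of p53, stood at 42.81 to 47.96 CPM against 32.04 to 41.51 CPM (−0.32, SE 0.08). Metabolic and RNA genes were Pdk3, a kinase that switches off pyruvate dehydrogenase, at −0.28 (SE 0.06), the collagen prolyl hydroxylase subunit P4ha1 at −0.31 (SE 0.07), and Mepce, which caps the 7SK RNA, at −0.25 (SE 0.05). The remaining 3 were Ccdc117 at −0.43 (SE 0.08), Zc3hav1l at −0.44 (SE 0.08) and Ubfd1 at −0.30 (SE 0.06). Leaving out any 1 of the 10 mice moved no named gene by more than 1.28 times and put 0 of the 24 under the threshold. Without exposed replicate 1, however, 2 other genes passed (edgeR adjusted p = 0.0385 for both): the bone and cartilage transcription factor Runx2 at 1.80 on the log2 scale and the cytochrome b561 family gene Cyb561d1 at 0.77. They are named because of that fit, after their values were seen.

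Gene lists for follicle cells, stress pathways and other cell types of the ovary were then described by their counts and medians, beside the median of 0.002 over all genes. No member of any of the 29 lists passed by edgeR. The list members that DESeq2's test called were Ptx3, Atf3, Dusp1, Btg2, Dnajb1, Zmat3 and Mid1. The plot of all lists shows that 18 of the 29 medians lay within 0.1 of 0. In a bulk sample a lower level can mean fewer cells of a type or less RNA per cell, and these cannot be told apart.

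**Figure D2:**
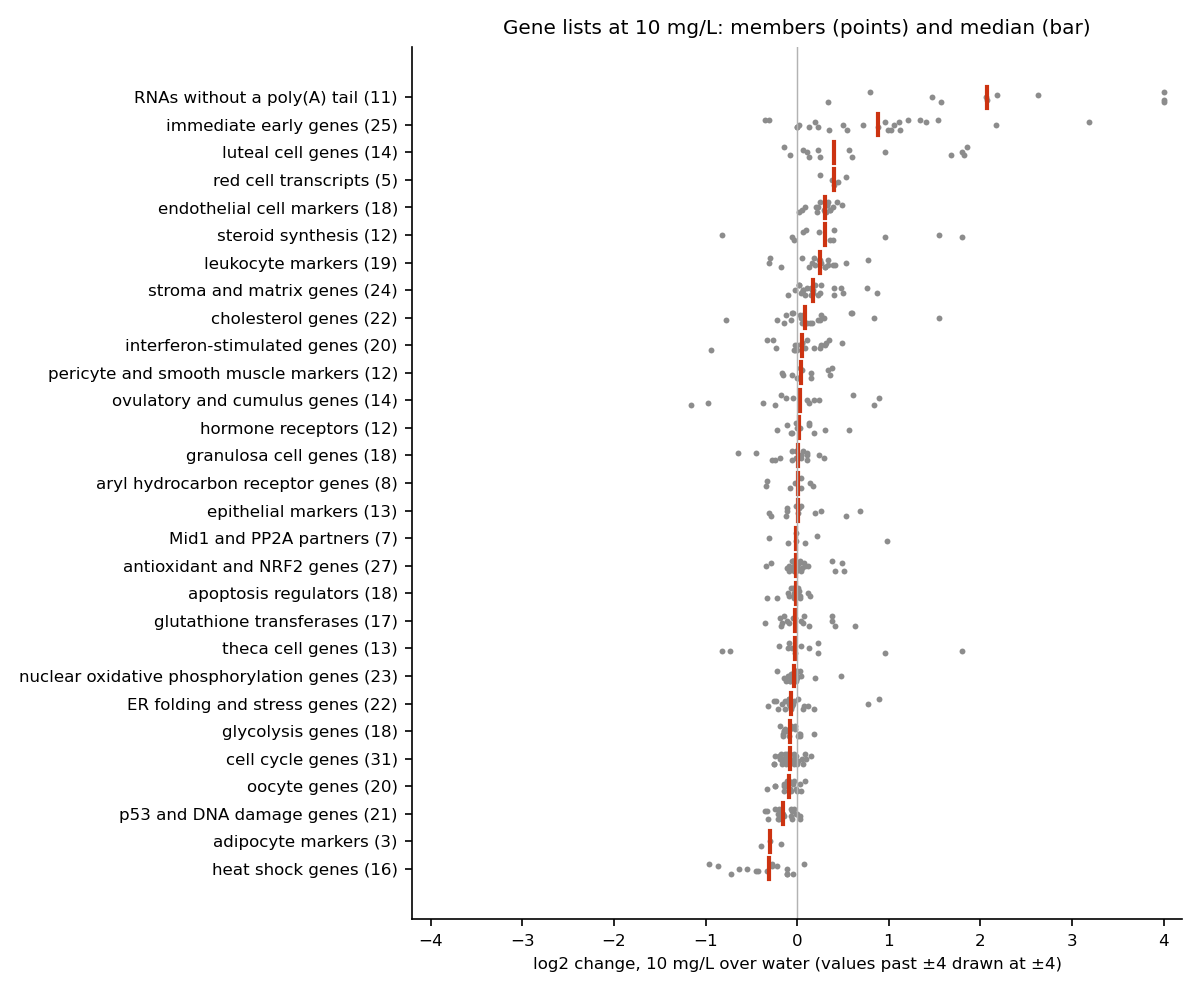
Each row is a gene list with its number of tested members; points are the members' log2 changes (10 mg/L over water, 5 mice each) and red bars the medians. Immediate early genes (median 0.88) lie near the top and heat shock genes (−0.30) at the bottom; the topmost row, RNAs without a poly(A) tail, has a median of 2.07 that is 0.39 without exposed replicate 2.

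Heat shock genes encode chaperones that hold or refold unfolded proteins, and the factor Hsf1 switches many of them on. Of 16 members, 15 were negative and 11 were lower at an unadjusted p under 0.05, against 2.53% of all genes, with a median of −0.30. The HSP110 chaperone Hsph1 stood at 261.5, 409.8, 414.7, 386.8 and 396.0 CPM in water replicates 1 to 5 and at 297.3, 277.7, 218.7, 189.5 and 149.7 CPM in exposed replicates. Water replicate 1 was the low one of its group and overlapped the exposed mice, and the log2 difference was −0.72 (SE 0.19, edgeR adjusted p = 0.604). The HSP40 gene Dnaja1 ran from 361.5 to 489.4 CPM in water mice and from 253.4 to 389.4 CPM in exposed mice (−0.45, SE 0.11). The abundant chaperones Hspa8 and Hsp90aa1 were at 3338 and 1137 CPM on average in water mice and at 2649 and 846 CPM in exposed mice (−0.33, SE 0.10, and −0.43, SE 0.11). The inducible HSP70 genes Hspa1a and Hspa1b differed by −0.87 (SE 0.30) and −0.96 (SE 0.30). These are near-identical copies, and how reads were divided between them is uncertain. Hsf1 itself was at 54.9 ± 1.05 CPM in water mice and 53.2 ± 5.31 CPM in exposed mice (SD, n = 5 each), and Hmox1 was the positive member, at 0.07 (SE 0.14).

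The list stayed negative with each mouse left out in turn (median −0.39 to −0.25, with 8 to 11 members lower at p under 0.05). The water mice of experiment 2 had the highest mean of the 4 groups for 15 of the 16 genes, all but Hmox1. All 16 members had a lower mean in the water mice of experiment 1 than in those of experiment 2. The exposed mice lay within or overlapped the range of the experiment 1 water mice for all 16. They did so for 17876 of all 18169 genes too, so this count is not particular to the list. For Dnajb1 that range was 56.1 to 87.1 CPM, which contains all 5 exposed values. The part of this offset between the experiments' water mice in the heat shock result was not tested.

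Promoters of the list are shown because their members shared a sign. The half-site pairs GAANNTTC or TTCNNGAA, the core of the element bound by heat shock factors, were searched on both strands in the 250 bases before each start site of RefSeq genes (build GRCm38.p6, not the build of the counts). This motif was chosen after the values were seen. A window was found for 11 of the 16 members, and 8 of these held the letters (Dnaja1, Hsph1, Hspe1, Hspa1b, Hspa1a, Dnajb4, Hspd1 and Hspb1), against 14.5% of 27025 genes. Dnajb1 had a window without them. The stretches below run 5′ to 3′ toward the start site and stop before it, with the motif in capitals. Hsph1 is at chr5:149636337-149636419 (minus strand), Hspb1 at chr5:135887752-135887879 (plus strand), where 2 pairs lie close together, and Hspa1b at chr17:34959285-34959392 (minus strand). The 250-base windows of Hspa1a and Hspa1b were identical at 247 positions.
Hsph1: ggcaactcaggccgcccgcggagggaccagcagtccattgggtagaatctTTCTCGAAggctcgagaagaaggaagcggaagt
Hspb1: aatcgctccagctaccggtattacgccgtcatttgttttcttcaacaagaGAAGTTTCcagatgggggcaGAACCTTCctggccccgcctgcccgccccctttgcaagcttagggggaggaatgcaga
Hspa1b: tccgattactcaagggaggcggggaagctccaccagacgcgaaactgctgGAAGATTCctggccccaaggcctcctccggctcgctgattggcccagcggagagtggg

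Immediate early genes encode transcription factors and feedback regulators whose mRNA appears without new protein synthesis soon after a stimulus. Of 25 members, 23 were positive and the median was 0.88. At the unadjusted threshold of 0.05 there were 13 of the 25 on the higher side (all genes, 4.2%) and 1 on the lower side. Fos, a subunit of the transcription factor AP-1, stood at 70.88, 46.83, 80.27, 37.23 and 73.68 CPM in water replicates 1 to 5 and at 25.51, 318.7, 52.45, 350.1 and 643.1 CPM in exposed replicates. Exposed replicates 2, 4 and 5 were above all water mice, and replicates 1 and 3 were within or below the water range. The log2 difference was 2.17 (SE 0.70, edgeR adjusted p = 0.625). Dusp1, a phosphatase that ends MAP kinase signalling, showed the same mice on top, with 10.21 to 15.91 CPM in water mice and 12.77, 34.34, 17.45, 42.3 and 52.32 CPM in exposed mice (1.40, SE 0.34). The AP-1 partners Fosb and Junb differed by 3.18 (SE 0.87) and 1.54 (SE 0.48).

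Atf3, a stress-induced member of the ATF family, was the one early gene whose groups did not overlap. Water mice were at 1.685, 2.296, 1.719, 2.599 and 1.798 CPM and exposed mice at 3.226, 3.353, 3.738, 2.99 and 6.849 CPM, a log2 difference of 1.00 (SE 0.25, edgeR adjusted p = 0.604). Here replicates 1 and 3 were also above the water mice. Btg2, an antiproliferative gene, ran from 31.08 to 58.36 CPM in water mice and from 49.85 to 111.1 CPM in exposed mice (0.88, SE 0.23). Fosl2 and Myc were the negative members, at −0.35 (SE 0.15) and −0.31 (SE 0.35). With each mouse left out in turn the list's median ran from 0.71 to 1.04, and without exposed replicate 2 it was 0.77 with 13 higher members at p under 0.05.

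The exposed mice with high Fos, replicates 2, 4 and 5, were also those with high markers of several other cell types, though not of all. In the mean log2 CPM of each list, relative to the water mean, immediate early genes stood at −0.17, 0.81, 0.10, 0.83 and 1.40 in exposed replicates 1 to 5. Endothelial markers stood at 0.07, 0.40, −0.06, 0.46 and 0.43, stroma and matrix genes at −0.16, 0.51, −0.49, 0.38 and 0.56, and leukocyte markers at −0.30, 0.22, −0.44, 0.70 and 0.56 in the same order. Red cell transcripts stood at −0.62, 1.05, −0.28, 0.36 and 0.88, and RNAs without a poly(A) tail at −0.07, 3.16, −0.04, 0.32 and 0.57. Replicates 1 and 3 were the low mice of each of these lists. They were also the low mice for pericyte and smooth muscle markers and epithelial markers. Within the follicle they were the low mice for oocyte genes (−0.34, 0.24, −0.61, −0.15 and 0.30) and theca genes (−0.27, 0.25, −0.14, 0.30 and 0.16). In granulosa genes (0.08, −0.11, 0.35, −0.24 and −0.67) replicates 1 and 3 were the high mice. In luteal genes (0.02, 0.15, 0.68, 1.40 and 0.84) and adipocyte markers (−0.49, −0.14, −0.004, 0.07 and −0.27) replicate 3 stood above replicate 2. The part of other cells, blood or RNA without a poly(A) tail in the level of immediate early genes was not tested.

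The cAMP response element TGACGTCA, bound by CREB and ATF family factors, was searched on both strands in the same windows, with TATAAA and the CArG box bound by serum response factor. Windows were found for 21 of the 25 members. The cAMP response element was in those of Dusp1 and Btg2 (2 members, against 1.77% of all genes), TATAAA in those of Fos, Ccn1 and Nr4a2 (3 members, against 14.3%), and the CArG box in those of Zfp36 and Egr2 (2 members, against 1.62%). The windows of Dusp1 and Btg2 are shown around the element, in capitals, as both genes were among the 3 with the smallest p of the list. Dusp1 is at chr17:26508558-26508665 and Btg2 at chr1:134079264-134079371, both on the minus strand of GRCm38.p6. Whether the element is bound in follicle cells is not measured here.
Dusp1: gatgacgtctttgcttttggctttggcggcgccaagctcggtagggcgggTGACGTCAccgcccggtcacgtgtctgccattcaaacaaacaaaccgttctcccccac
Btg2: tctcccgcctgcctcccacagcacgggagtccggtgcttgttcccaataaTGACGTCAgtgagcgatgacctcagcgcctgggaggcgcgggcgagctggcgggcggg

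**Figure D3:**
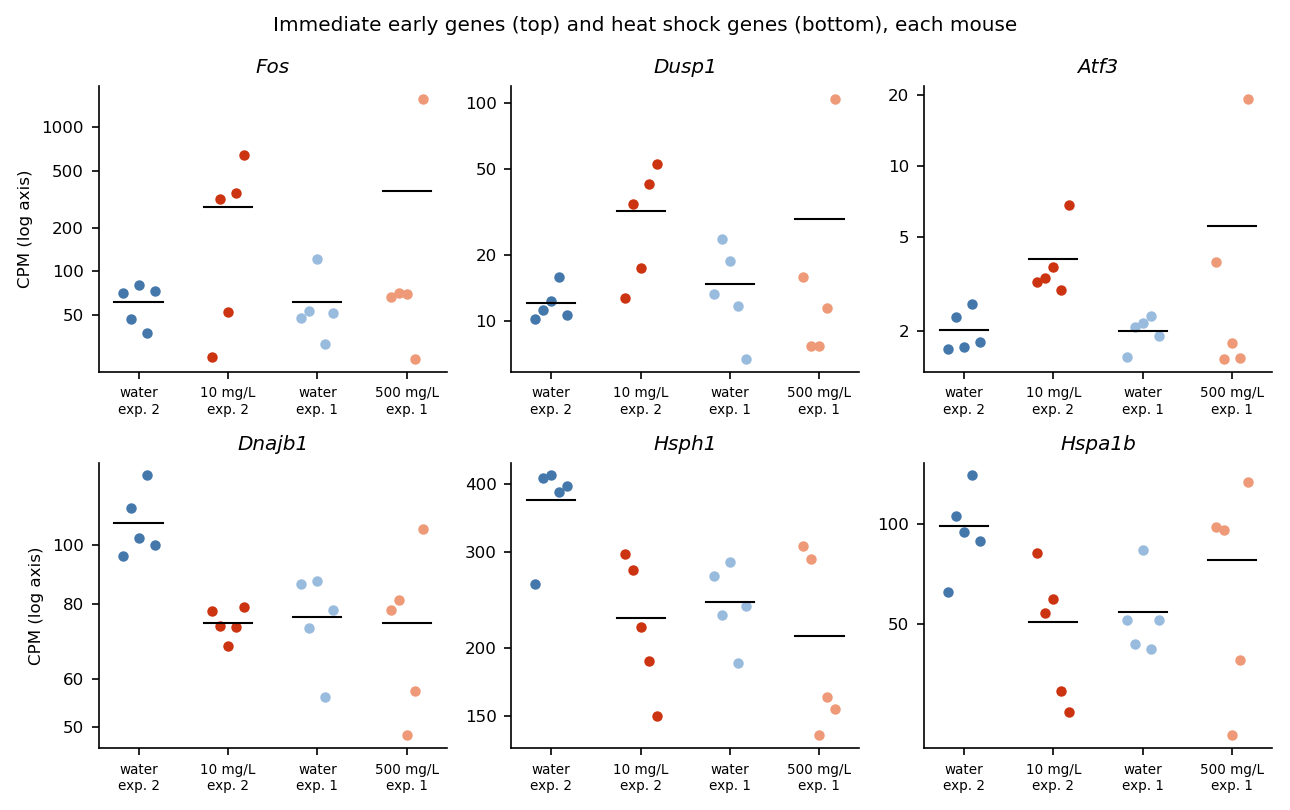
Each point is 1 mouse (5 per group), with CPM on a log axis and the group mean as a bar, for 3 immediate early genes (top) and 3 heat shock genes (bottom). Exposed mice of experiment 2 reach 643.1 CPM for Fos while 2 of them stay among the water mice, the mean of Fos at 500 mg/L rests on 1 mouse at 1567 CPM, and the water mice of experiment 2 are the high group for Dnajb1.

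Endothelial cells line the vessels of the theca. All 18 of their markers were positive, 10 of them at an unadjusted p under 0.05 (4.2% of all genes were higher at that threshold), with a median of 0.31. The adhesion molecule Pecam1 stood at 46.01, 39.45, 46.38, 36.57 and 46.5 CPM in water mice and at 48.67, 56.86, 46.65, 60.35 and 58.47 CPM in exposed mice. The groups did not overlap, but exposed replicate 3 and water replicate 5 were 0.15 CPM apart, and the log2 difference was 0.33 (SE 0.10, edgeR adjusted p = 0.604). The TGF-beta co-receptor Eng and the angiopoietin receptor Tek differed by 0.43 (SE 0.16) and 0.31 (SE 0.13). Without exposed replicate 2 the median was 0.27, with 16 of 18 positive and 3 at p under 0.05, and this last count was 2 without exposed replicate 4 or 5 and 3 without water replicate 2 or 4. Summed over the list, water mice ran from 424.5 to 575.3 CPM and exposed mice from 515.8 to 733.6 CPM. Of the other cell types, stroma and matrix genes had 22 of 24 positive and a median of 0.17, with the gelatinase Mmp9 at 0.87 (SE 0.23) and its groups apart. That median was 0.05, 0.06 and 0.09 without exposed replicate 2, exposed replicate 5 and water replicate 4, and 0.25 and 0.32 without exposed replicates 1 and 3. Leukocyte markers had 16 of 19 positive (median 0.24), with medians of 0.42, 0.06 and 0.14 without exposed replicates 3, 4 and 5. The integrin Itgam was the leukocyte marker with the smallest p (0.78, SE 0.27). Only 1 of the 19 had a lower mean in the water mice of experiment 1 than in those of experiment 2. At 500 mg/L the leukocyte median was −0.60, with 18 of 19 negative. The part of the offset between the experiments' water mice in these values was not tested.

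Luteal genes were positive in 12 of 14 members, 5 of them at p under 0.05 against 4.2% of all genes, with a median of 0.41. Without water replicate 1, 4 or 5 or exposed replicate 4 the count at p under 0.05 was 3, and the median ran from 0.30 to 0.53 over all mice left out in turn. The secreted Wnt antagonist Sfrp4 stood at 119.6, 131.8, 326.8, 89.75 and 69.73 CPM in water mice and at 189.5, 424.0, 382.6, 736.2 and 879.1 CPM in exposed mice. Exposed replicates 4 and 5 were the highest and the groups overlapped through water replicate 3, with a log2 difference of 1.82 (SE 0.48, edgeR adjusted p = 0.604). Star, which carries cholesterol into mitochondria for steroid synthesis, ran from 147.9 to 491.2 CPM in water mice and was at 407.0, 266.1, 488.1, 2316 and 1037 CPM in exposed mice (1.80, SE 0.56). Ptgfr, the receptor through which prostaglandin F2-alpha ends luteal function, differed by 1.86 (SE 0.55). Steroid synthesis genes had 9 of 12 positive and a median of 0.30, with 4 at p under 0.05 against 4.2% of all genes. Star and Cyp11a1 are 2 of these 4 and were counted among the 5 luteal genes as well. In the water mice of experiment 1, 4 of the 14 luteal and 3 of the 12 steroid synthesis genes had a lower mean than in those of experiment 2. The steroid synthesis median was 0.17 without water replicate 1 and 0.19 without exposed replicate 2. In this list 2 were at p under 0.05 without water replicate 5 or exposed replicate 2 or 4. Its other leading members were Hsd17b7 at 1.54 (SE 0.54), with exposed replicate 2 at 617.8 CPM and the other 9 mice at most at 174.0 CPM, and the reductase Fdxr at 0.36 (SE 0.14). Without exposed replicate 2 these were 0.68 (SE 0.34) for Hsd17b7 and 0.25 (SE 0.13) for Fdxr. Cyp17a1, the theca enzyme of androgen synthesis, stood at −0.82 (SE 0.57) and Cyp19a1, the granulosa aromatase, at 0.24 (SE 0.66), both with 95% intervals that include 0.

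Granulosa genes had 9 of 18 positive, a median of 0.01 and none at an unadjusted p under 0.05. Without exposed replicate 3, 15 of the 18 were negative, 2 of them at p under 0.05, with a median of −0.11. Oocyte genes had 16 of 20 negative, a median of −0.09 and none at p under 0.05. Their median was 0.009 without exposed replicate 3, and without exposed replicate 2 or 5 it was −0.19 with all 20 negative. Of the 20 oocyte genes, 19 had a lower mean in the water mice of experiment 1 than in those of experiment 2. At 500 mg/L, 19 of the 20 were positive, with a median of 0.17. The part of the offset between the experiments' water mice in the oocyte values was not tested. Theca genes had a median of −0.03, which was 0.11 without exposed replicate 3 and −0.14 without exposed replicate 2. Of the 13 theca genes, 2 were higher at p under 0.05 (against 4.2% of all genes) and 0 lower. These 2 were Star and Cyp11a1, which are also on the luteal and steroid synthesis lists. Ovulatory and cumulus genes split evenly, 7 and 7. Among them Ptx3, a matrix protein of the expanding cumulus, was at 1.18 to 2.082 CPM in water mice and 2.227 to 3.293 CPM in exposed mice (0.83, SE 0.22). The EGF-like ligand Ereg was at 0.6741 to 3.019 CPM and 0.7729 to 1.288 CPM (−1.16, SE 0.34).

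Glycolysis holds the classical target of iodoacetic acid, and its genes had 13 of 18 negative, none at p under 0.05, and a median of −0.08. Of the 18, 17 had a lower mean in the water mice of experiment 1 than in those of experiment 2. At 500 mg/L, 16 of the 18 were positive, with a median of 0.04. The part of the offset between the experiments' water mice in the glycolysis values was not tested. Gapdh was at 1449 ± 162 CPM in water mice and 1429 ± 230 CPM in exposed mice (SD, n = 5 each), a log2 difference of −0.02 (SE 0.12). Antioxidant and NRF2 genes had 13 of 27 positive and a median of −0.02 (0.02 without exposed replicate 2). At p under 0.05 there was 1 of the 27 in each direction, against 4.2% of all genes higher and 2.53% lower. These were the glutamate-cysteine ligase subunit Gclm at −0.29 (SE 0.11) and the sulfiredoxin Srxn1 at 0.49 (SE 0.22). Glutathione transferases had a median of −0.03. Genes of p53 and DNA damage had 18 of 21 negative, 3 of them at p under 0.05 (1 without water replicate 5, 5 without exposed replicate 4) against 2.53% of all genes, and a median of −0.16: Zmat3 above, Phlda3 at −0.35 (SE 0.13) and Trp53inp1 at −0.25 (SE 0.10). The cell cycle inhibitor Cdkn1a stood at −0.06 (SE 0.24) and Mdm2 at −0.02 (SE 0.06). As for heat shock genes, most members (15 of 21) had a lower mean in the water mice of experiment 1 than in those of experiment 2. Relative to the water mean of experiment 2, the list's mean log2 CPM was −0.21 to −0.07 in the water mice of experiment 1 and −0.23 to −0.04 in the exposed mice. The part of this offset in the p53 result was not tested. All but 6 of the 31 cell cycle genes were negative, none at p under 0.05, with a median of −0.08. For ER folding and stress genes the median was −0.07, with Ppp1r15a, which reverses the stress-induced block of translation, at 0.77 (SE 0.21) and Xbp1 at −0.32 (SE 0.12).

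Of the remaining lists, most had a median within 0.1 of 0. Medians were 0.09 for cholesterol genes, 0.05 for interferon-stimulated genes (Ifi27 at 0.31, SE 0.08, with the groups apart), 0.04 for pericyte and smooth muscle markers, 0.02 for hormone receptors, 0.006 for epithelial markers, 0.008 for aryl hydrocarbon receptor genes, −0.02 for apoptosis regulators and −0.03 for nuclear genes of oxidative phosphorylation. Without exposed replicate 2 the medians of pericyte markers, hormone receptors, epithelial markers and nuclear oxidative phosphorylation genes had the other sign, at −0.04, −0.02, −0.001 and 0.004. Red cell transcripts had 5 of 5 positive (median 0.40, from 0.15 without exposed replicate 2 to 0.68 without exposed replicate 1), and of 8 adipocyte markers 3 were measured above the filter (median −0.30). All 11 measured RNAs without a poly(A) tail were positive, 8 of them at p under 0.05 against 4.2% of all genes, with a median of 2.07. Without exposed replicate 2 the median was 0.39, with 8 of 11 positive and 2 at p under 0.05.

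The 500 mg/L group and its own water mice gave a comparison that shares no animal with that at 10 mg/L. There 939 genes had an unadjusted p under 0.05 in either direction (5.17%) and 0 passed. Of the 24 named genes, 14 had the same sign at 500 mg/L as at 10 mg/L, as did 9408 of all 18169 genes. By direction this was 11 of the 12 lower and 3 of the 12 higher genes. Among all genes with groups apart it was 64 of the 91 lower and 37 of the 90 higher genes. Of the named genes, 1 lower and 2 higher had the same sign with an unadjusted edgeR p under 0.05 at 500 mg/L. The opposite sign at that threshold was seen for 0 lower and 2 higher named genes. Over all 18169 genes, 516 had the same sign and 423 the opposite sign at that threshold. The median of the 12 lower genes was −0.10 there and −0.38 at 10 mg/L. The 3 higher genes with the same sign were Mid1, Marchf7 and Apold1.

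Mid1 stood at 41.13, 43.87, 28.1, 64.31 and 38.94 CPM in the 500 mg/L mice and at 17.6 to 27.3 CPM in the water mice of experiment 1, again without overlap. Its log2 difference there was 1.03 (SE 0.19, edgeR adjusted p = 0.616), and the differences at both doses were apart by −0.05 (SE 0.27). Marchf7 was 0.24 (SE 0.09) at 500 mg/L and Apold1 0.40 (SE 0.44). Tnfrsf9, at 3.67 for 10 mg/L, was −1.42 (SE 0.84) for 500 mg/L, and its water mice of experiment 1 ran from 0.851 to 42.4 CPM, a range that contains all 5 mice at 10 mg/L. Pik3ap1 and Cast were at −0.38 (SE 0.16) and −0.49 (SE 0.22). A test of the difference between the dose effects gave 984 genes at an unadjusted p under 0.05 (5.42%) and 0 after adjustment, and among the named genes 14 of 24, the smallest adjusted p being 0.753. The 10 mg/L contrast that chose these genes enters that test, so nothing is read from this count.

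**Figure D4:**
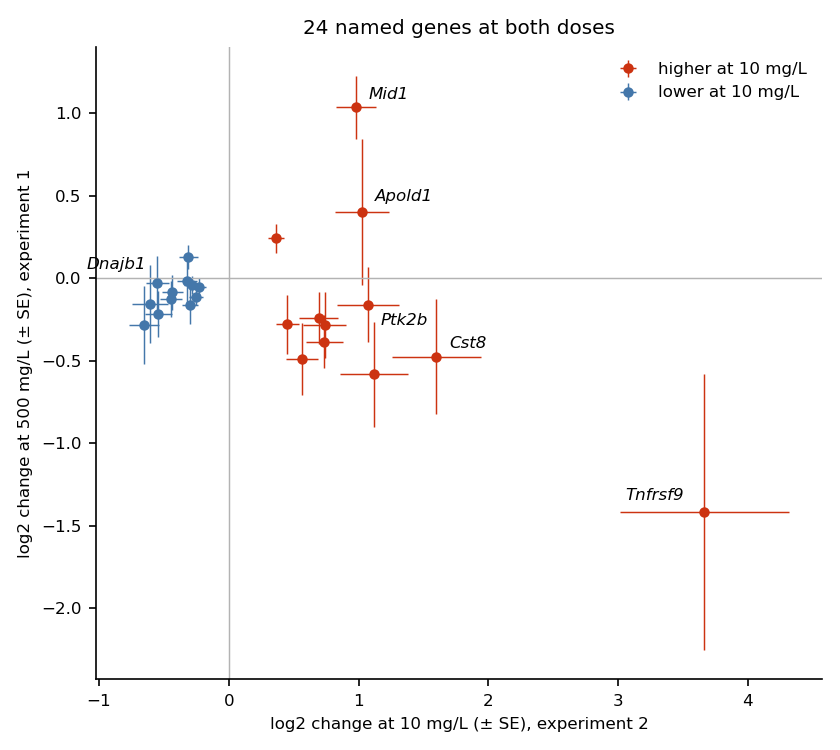
Points are the 24 named genes; the x axis is the log2 change at 10 mg/L against the water mice of experiment 2 and the y axis the log2 change at 500 mg/L against the water mice of experiment 1, with bars of 1 SE. Mid1 lies near 1 on both axes, most other higher genes lie below 0 on the y axis, and Tnfrsf9 stands at 3.67 and −1.42.

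Set against the water mice of experiment 1, the exposed mice at 10 mg/L stayed apart for 1 of the 24 named genes, Mid1, and overlapped them for 23. Over all 18169 genes they overlapped them for 17876. Of all 90 higher genes with no overlap within experiment 2, 8 were also above every water mouse of experiment 1, among them Atf3, Ifi27 and Serpina1b, a protease inhibitor gene with near-identical copies (1.43, SE 0.26). Of the 91 lower genes, 10 were also below, among them Mtrr, the reductase that reactivates methionine synthase (−0.22, SE 0.06), and the RNA-binding protein gene Qk (−0.19, SE 0.09). These examples were chosen after their values were seen. The exposed mice that chose the genes enter this comparison too, so nothing is read from these counts.

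The lists differed from each other in how 10 and 500 mg/L compared. Immediate early genes had medians of 0.88 and 0.92, but at 500 mg/L a single mouse carried the value. Replicate 5 of that group had Fos at 1567 CPM and the other 4 at 24.77 to 70.87 CPM, and without it the median was −0.11, with 4 of 25 members positive. Heat shock genes had medians of −0.30 and −0.02, endothelial markers 0.31 and 0.01, and luteal genes 0.41 and −0.12. Star was −1.33 (SE 0.62) at 500 mg/L, and the difference between its dose effects was 3.12 (SE 0.88, edgeR adjusted p = 0.810). Luteal levels also ranged widely between water mice: Star ran from 199 to 2558 CPM in those of experiment 1.

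**Figure D5:**
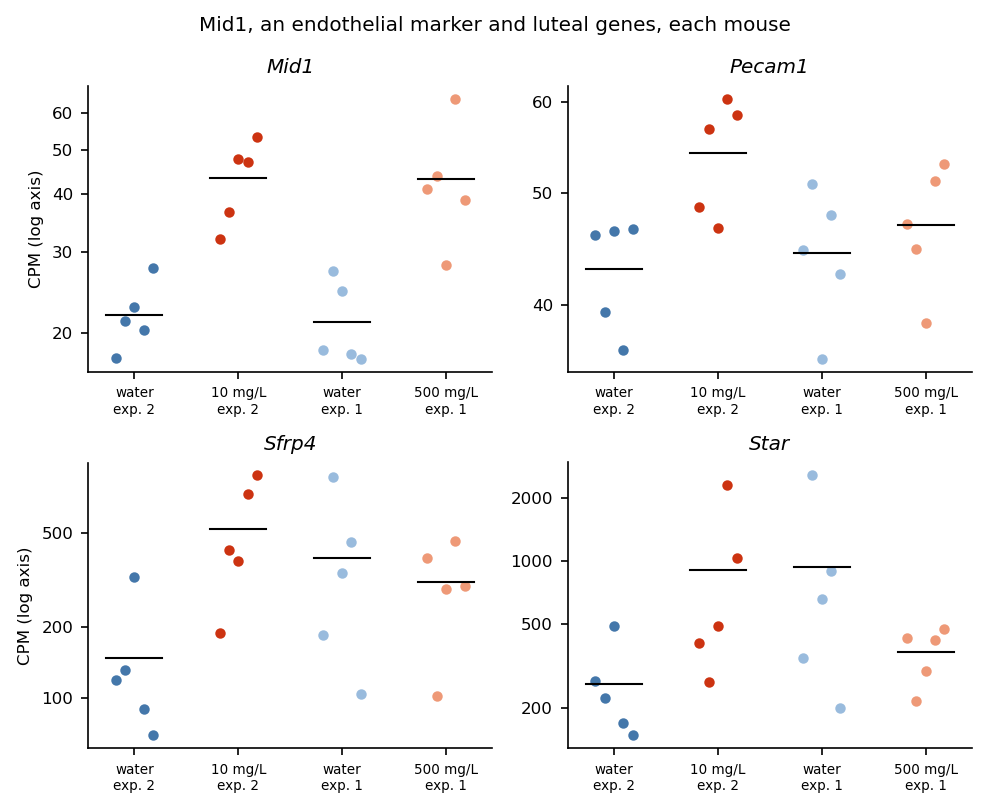
Each point is 1 mouse, with CPM on a log axis and group means as bars, in the 4 groups of the study. Mid1 is higher in both exposed groups than in both water groups with no overlap, whereas Pecam1, Sfrp4 and Star at 10 mg/L overlap the water mice of experiment 1.

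The authors' deposited table, in which 10 mg/L was compared with the combined water mice of both experiments, listed 111 genes with an FDR under 0.05 at 10 mg/L. Within experiment 2, whose 10 mice are part of that comparison, 65 of the 111 had an unadjusted p under 0.05 (6.73% of all genes) and 22 had groups that did not overlap (0.996% of all genes). As the same mice enter both, nothing is read from these counts. In the authors' deposited table Mid1 had a fold change of 1.97 (FDR 0.0169) and Cst8 one of 1.86 (FDR 0.0267), and Dnajb1 had −1.21 with an FDR of 0.395. The water mice of experiment 1, which enter that table and not the comparison here, had Dnajb1 at 76.1 ± 12.6 CPM (SD, n = 5) against 109 ± 13.9 CPM in those of experiment 2 (SD, n = 5).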

How the data were processed

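Poly(A)-selected, stranded libraries were sequenced for 101 cycles from 1 end, per the labels' protocols. Tools named in the submitters' processing notes are Salmon 1.2.0, FastQC 0.11.8, R 4.1.2, limma and edgeR, with the build GRCm39. The step from transcripts to genes is not given in the sources used here. Per the file headers and values, the authors deposited raw estimated counts for each gene, which Salmon can divide between near-identical genes. Rounding them to whole counts moved the library sums by medians of 85.1 (water) and 48.0 (exposed). A second deposited table gives the authors' p-values, adjusted p-values and signed linear fold changes.

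The 18169 genes (of 39253) that the authors marked as kept were fitted in R 4.3.3 with edgeR 4.0.16 (TMM scaling, robust quasi-likelihood F-test, two-sided, Benjamini-Hochberg at 0.05) on the 10 mice of experiment 2. SE is |log2 change| over the root of F. A fit with 4 group means over 20 mice gave the values at 500 mg/L and the difference between dose effects. CPM of all mice are on the scale of experiment 2. The mean log2 CPM of a list uses a pseudocount of 0.5. DESeq2 1.42.0 and limma 3.58.1 were alternatives, and scripts were tested on simulated data. Named genes were up to 12 per direction with the smallest p among genes of at least 2 CPM whose groups did not overlap (no Gm or Rik models), the leading members of each list, and Mid1. The members and lists were chosen with earlier results of these data known. Within each group of experiment 2, no library was a copy of another. The chi-square between replicates, divided by the number of genes, was 21.4 to 146 in 20 within-group pairs. Pairs across groups and the mice of experiment 1 were not compared in this way. Depth was 39.9 M to 51.5 M counts per mouse.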

Additional observations from a re-analysis of the deposited data

Results flagged for a closer look

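In 106 groups of 5 mice (the named genes' levels and the summed levels of the lists), 7 had a mouse whose gap to its nearest neighbour exceeded 0.71 of the group's range, Dixon's 95% limit; chance gives about 5% of groups. RNAs without a poly(A) tail summed to 388.5 CPM in exposed replicate 2 and to 22.1 to 49.9 CPM in the other exposed mice. Among exposed mice, replicate 2 also had the lowest sum of interferon-stimulated genes, 447.6 CPM against 502.1 to 513.2 CPM. Among water mice, replicate 4 had the lowest sum of ovulatory and cumulus genes, 540.7 CPM against 757.1 to 835.8 CPM, and the highest sum of cell cycle genes, 4090 CPM against 3279 to 3452 CPM. Water replicate 1 was high for Tnfrsf9, at 2.263 CPM against 0.8279 to 1.083 CPM, and for the calpain inhibitor Cast, at 64.98 CPM against 51.62 to 53.32 CPM. Exposed replicate 3 was high for Dedd2, at 19.22 CPM against 13.82 to 15.33 CPM.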

How the results depend on the processing

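The count of genes that passed was 0 in edgeR under every scaling, gene filter and 20-mouse fit tried, and 0 by limma-voom and limma-trend. It was 75 by DESeq2's test, where 1446 genes got no adjusted p, and 1 (Mid1) with the controls of both experiments combined. Leaving out each mouse in turn gave 0 to 2 genes that passed and 878 to 1719 at an unadjusted p under 0.05; the cause was not tested. With the replicate number as a block (replicate block), 0 passed and 832 had a p under 0.05, against 1222 without it. Mice with the same number did not deviate together (correlations −0.121 to 0.0769), so the numbers were not taken as pairs. None of the 24 genes named first, 12 per direction, changed sign in any setting. Medians of 14 of the 29 lists kept their sign in all 21 settings, and 15 did not. Leukocyte markers were −0.20 against 0.24 with the combined controls. The immediate early median at 500 mg/L ran from −0.11 to 1.11 with each mouse of experiment 1 left out, an alternative added after the data were seen. With 5 mice per group, 79.1% of genes had a 95% interval within 2-fold, so a 2-fold difference was not excluded for the rest.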
